A study of Acipenser schrenckii with 5 samples.

Results

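The liver and the spleen of 1 Amur sturgeon, *Acipenser schrenckii*, were compared on microRNA (miRNA) microarrays. Of the 5 arrays of the series, the 2 labelled with the tissues liver and spleen were used for every comparison, and all 663 miRNA probes of each array, with 5 repeat spots per probe, were analysed. The other arrays, of brain, muscle and heart, served for normalization and as a background for some probes. All 5 tissues came from 1 fish of 5 months, untreated as far as the labels go, and each tissue was hybridized to 1 array. RNA was size fractionated, extended with a poly(A) tail, tagged and stained with the dye Cy3. The sample labels and the methods name different extraction reagents, so the reagent is not settled here. With 1 array per tissue there is no replicate check and no p-value, and the arrays do not show the spread among fish. The paper also reports real-time PCR of some miRNAs in these tissues of several fish, which was not used here. The error given with each value is the range over the 5 repeat spots of a probe, which is a technical error within 1 array.

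MiRNAs are short RNAs that guide the silencing of messenger RNAs, which they find mainly through the seed, the bases next to the 5′ end. Many are made mainly in particular cell lineages, so that the miRNAs of a whole organ depend on the cells it holds. The liver is built mostly of hepatocytes, whereas the spleen of fish filters the blood, stores red cells and houses lymphocytes and macrophages. Both organs lie close to the pancreas in the body cavity of fish, and exocrine pancreatic tissue of many fishes is spread among the neighbouring organs. In whole organs, a lower value in 1 organ can mean fewer cells of a type or less of the miRNA per cell, and these cannot be told apart.

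The sequences below are those the probes were made to detect, as given in the deposited scanner files. They are written 5′ to 3′ with the seed, bases 2 to 8, in capitals. Each name starts with the code of the species from which the probe was taken (dre, zebrafish; ccr, common carp; ola, medaka; ipu, channel catfish; fru, fugu; tni, green pufferfish; hhi, Atlantic halibut; pol, Japanese flounder). The hepatic set is shown because it separated the organs most widely. Here dre-miR-192 starts 1 base before ola-miR-192-5p, and ola-miR-122 holds the sequence of the 3p arm, like pol-miR-122-3p.
dre-miR-122: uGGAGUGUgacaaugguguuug
ccr-miR-122: uGGAGUGUgacaaugguguuu
ola-miR-122: aACGCCAUuaucacacuaa
pol-miR-122-3p: aACGCCAUuaucacacuauaua
dre-miR-192: aUGACCUAugaauugacagcc
ola-miR-192-5p: uGACCUAUgaauugacagcca
dre-miR-194a: uGUAACAGcaacuccaugugg
ccr-miR-194: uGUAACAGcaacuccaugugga
ola-miR-194-5p: uGUAACAGcaacuccaugu

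The epithelial probes shown carry a pair of seeds, AACACUG in dre-miR-141 and ccr-miR-200a and AAUACUG in ola-miR-200b and ipu-miR-429a. The pancreas set is shown with it because both sets were higher in liver. Within it, miR-216a and miR-216b have different seeds.
dre-miR-141: uAACACUGucugguaacgaugc
ccr-miR-200a: uAACACUGucugguaacgaug
ola-miR-200b: uAAUACUGccugguaaugaug
ipu-miR-429a: uAAUACUGucugguaaugccg
fru-miR-216a: aAAUCUCAgcuggcaacuguga
dre-miR-216a: uAAUCUCAgcuggcaacuguga
dre-miR-216b: uAAUCUCUgcaggcaacuguga
dre-miR-217: uACUGCAUcaggaacugauugg
ipu-miR-375: uUUGUUCGuucggcucgcguu

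The blood-cell and immune sets are shown because they were lower in liver, both arms of miR-144 and of miR-142 among them.
dre-miR-451: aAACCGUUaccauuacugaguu
pol-miR-144-5p: gGAUAUCAucuuauacuguaagu
ccr-miR-144: cUACAGUAuagaugauguacu
tni-miR-142b: cAUAAAGUagaaagcacuacua
ccr-miR-142-3p: gUAGUGUUuccuacuuuaugg
ola-miR-223: uGUCAGUUugucaaauaccc
dre-miR-146a: uGAGAACUgaauuccauagaugg
dre-miR-146b: uGAGAACUgaauuccaagggug
ola-miR-150: aCUCCCAAuccuuguaccagu
dre-miR-155: uUAAUGCUaaucgugauagggg
dre-miR-181c: cACAUUCAuugcugucgguggg
dre-miR-462: uAACGGAAcccauaaugcagcu

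The values are called signal here, the intensity of a spot after background correction and normalization, taken as the median over the 5 spots of a probe. The median was used because spots failed often on the liver array, a failed spot being one under 0.333 times its probe's median. On the liver array 56 of the 985 spots of detected probes failed (5.69%), in 52 probes, against 2 of 1665 spots (0.12%) on the spleen array and 0.231% to 1.19% on the other arrays. The empty spots were also more uneven on the liver array, with an SD of 58.5 in raw density, against 5.90 on the spleen array. A probe was called detected when at least 50% of its spots exceeded the local background by 3 times that SD with a spot coefficient of variation under 0.5. By these criteria 197 of 663 probes (29.7%) were detected in liver and 333 (50.2%) in spleen. The lowest detected signal was 365 in liver and 52.1 in spleen, so the liver array could not show dim miRNAs that the spleen array could.

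In all, 194 probes were detected in both organs, 3 in liver alone, 139 in spleen alone and 327 in neither. Of the 139 probes detected in spleen alone, 82 had a spleen signal under the lowest detected liver signal, so that no lower level in liver could have been called for them. A call needed a spleen signal at least 2-fold above that limit, so some of the remaining probes could not be called either. Among the 336 probes detected in at least 1 organ, 62 were at least 2-fold higher in liver (18.5%) and 49 were at least 2-fold lower in liver (14.6%). Many probes differ by a few bases and can bind the same miRNA, so probes are not independent of each other. Grouped by miRNA number and a shared stretch of 10 bases, the 62 formed 29 families and the 49 formed 25. The shares given for each list below count probes, and so count near-identical probes more than once. Only a probe detected in liver could be called higher there, so the 62 all came from the 197 detected in liver. The 18.5% therefore understates the share among probes detected in liver. Likewise, each of the 49 had a spleen signal at least 2-fold above the lowest detected liver signal, whereas the median spleen signal of the 336 was 719. The 14.6% therefore understates the share among probes bright enough in spleen for such a call, also where it is set beside a list below. The spots of the 2 organs did not overlap for 59 of the 62 and for all 49, where 1 failed spot per probe was set aside. Another 109 probes were detected in both organs within 2-fold, and 116 were detected in 1 organ only without a call. Where a probe was not detected in the dimmer organ, its fold is a lower bound, computed against the lowest detected signal of that organ or the probe's own signal, whichever was higher. This was so for 3 of the 62 and 23 of the 49. Signals are compared between organs for the same probe only, because each probe binds its target with its own strength.

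**Figure D1:**
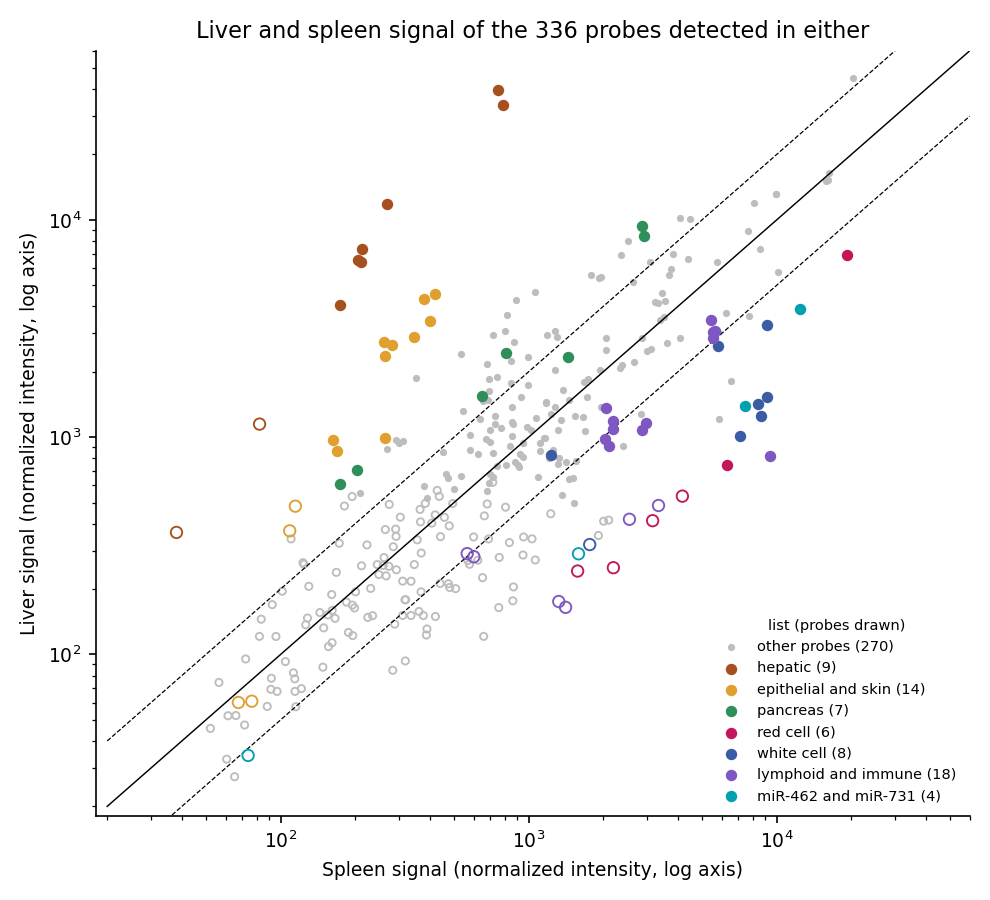
Signal in liver (vertical, log axis) against signal in spleen (horizontal, log axis) for the 336 probes detected in at least 1 organ, with filled points for probes detected in both and open points for probes detected in 1 organ only. The solid line marks equal signal and the dashed lines a 2-fold difference. The hepatic probes detected in both organs lie farthest above the line, the epithelial probes of the miR-200 group and the pancreas-type probes also above it, and the red-cell, white-cell and immune probes below it.

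Hepatic miRNAs had the widest ratios between the organs. The list of miR-122, miR-192 and miR-194 had 12 probes, of which 9 were detected in liver and 7 in spleen. All 9 were at least 2-fold higher in liver, beside 18.5% of all tested probes and 62 of the 197 probes detected in liver. For the 7 detected in both organs the ratio of liver over spleen was 23.5 to 52.7, with a median of 34.5, beside 1.21 over the 194 probes detected in both. Over all 9, with the other 2 at their bound, the median was 31.8. No probe for miR-215, another member of this group, was among the 663. MiR-122 is the main miRNA of hepatocytes and is known in mammals for its part in cholesterol and lipid metabolism. The probe dre-miR-122 gave a signal of 39731 in liver (36312 to 41606), against 754 in spleen (230.0 to 767), a 52.7-fold difference with no overlap of the spots. The probe ccr-miR-122, which is shorter by 1 base at the 3′ end, gave 33872 in liver (369 to 43737), against 785 in spleen (757 to 1094), a 43.2-fold difference. Its lowest liver spot had failed, and the other 4 lay above every spleen spot.

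The 3p arm of miR-122 was also measured. The probe ola-miR-122 gave 1148 in liver (1019 to 1422), against 82.3 in spleen (71.5 to 98.7) and was not detected in spleen, so that it was at least 14.0-fold higher in liver. The probe pol-miR-122-3p gave 365 in liver (279 to 416) and was not detected in spleen (38.1), a difference of at least 6.99-fold. Its liver signal was the lowest that counted as detected on that array. Both arms of the miR-122 hairpin were thus higher in liver.

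MiR-192 and miR-194, which share a primary transcript in mammals and are known there from liver, gut and kidney, followed. The probe dre-miR-194a gave 11774 in liver (1591 to 12074), against 268 in spleen (239 to 286), a 43.9-fold difference. The probes ccr-miR-194 and ola-miR-194-5p, which are longer by 1 base and shorter by 2 bases at the 3′ end, were 30.4-fold and 23.5-fold higher in liver. The liver spots of all 3 lay above the spleen spots. The probe ola-miR-192-5p gave 7369 in liver (1331 to 9587), against 214 in spleen (150.3 to 229), a 34.5-fold difference, and dre-miR-192, which is shifted by 1 base, gave 31.8-fold. Probes dre-miR-194b, ola-miR-192-3p and ola-miR-194-3p were detected in neither organ.

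The spleen held these miRNAs at a low level. For the 7 hepatic probes detected in both organs, the spleen signal was 1.90% to 4.26% of the liver signal in the values given here. Without normalization it was 2.12% to 3.15%. Their ratios of liver over spleen rose to 73.8 to 111 with the loess over 2 arrays, so the spleen level depended on the scaling. The spleen signal of miR-122 was 5.10 and 5.50 times the highest of brain, muscle and heart by the 2 probes for the 5p arm. That of miR-192 and miR-194 was 0.974 to 1.40 times the highest of those tissues, the muscle in each case. These comparisons with the other tissues were made in the values given here only. Summed over the list, the hepatic signal was 111496 in liver and 2825 in spleen, and 614 in brain, 1386 in muscle and 228 in heart, where 3, 8 and 0 of the 12 probes were detected. Whether liver tissue or RNA entered the spleen sample was not tested.

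Other miRNAs that are plentiful in mammalian hepatocytes or tied to lipid metabolism differed less. The miR-148 probes, which share their seed with miR-152, were higher in liver: ola-miR-148 gave 4673 in liver (3079.7 to 5089), against 1058 in spleen (1016 to 1119), a 4.41-fold difference, and dre-miR-148 was 3.33-fold higher. For ola-miR-152, with the same seed, the signal was 1450.1 in liver (816 to 2045), against 1175 in spleen (1164 to 1241), a ratio of 1.23 that was not called. The single probe for miR-33, which lies within a cholesterol-regulating gene in vertebrates, has the seed AAUGUAC and was detected in neither organ. It covers 1 strand of the hairpin only, so the other strand of miR-33 was not measured. Of the 7 probes of this list, 4 were detected in at least 1 organ, 3 of them in liver. The 2 that were called were both higher in liver, 50% of the 4, beside 18.5% of all tested probes.

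Epithelial miRNAs made up the next group. MiR-141, the miR-200s and miR-429 are expressed in epithelia of many organs and, in mammals, restrain the loss of epithelial character. All 11 detected probes of this group, of 12 on the chip, were at least 2-fold higher in liver. The share was 18.5% over all tested probes, and 62 of the 197 probes detected in liver. The 10 detected in both organs had ratios of 3.76 to 11.4, and the liver spots of all 11 lay above the spleen spots once a failed spot was set aside. The probe dre-miR-141 gave 4307 in liver (3373 to 4772), against 378 in spleen (372 to 432), an 11.4-fold difference. With the same seed, ccr-miR-200a gave 4573 in liver (4014 to 5200.2), against 419 in spleen (388 to 458), a 10.9-fold difference. With the other seed, ola-miR-200b was 10.5-fold and ipu-miR-429a 5.95-fold higher in liver. The difference was therefore present for both of these seeds.

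The skin-type miRNAs miR-203 and miR-205 could hardly be compared. Of their 10 probes none was detected in liver and 3 were detected in spleen, at spleen signals of 67.6 to 109, all under the lowest detected liver signal, so that none was called. The miR-200 group was not particular to liver among the 5 tissues. Over its 11 detected probes the liver signal was 0.645 to 1.78 times the highest of brain, muscle and heart, so the probes differed in which tissue was highest. For dre-miR-141 the liver signal was 1.63 times, and the spleen signal 0.143 times, the highest of those 3 tissues. Summed over the whole epithelial and skin list of 22 probes, the signal was 27577 in liver and 3797 in spleen, and 59957 in muscle. This sum includes the 10 probes for miR-203 and miR-205, so it does not describe the miR-200 group alone.

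Pancreas-type miRNAs were present in both organs, and higher in liver. MiR-216 and miR-217 are known from the exocrine pancreas, where they lie in 1 cluster in vertebrates, and miR-375 from the hormone-secreting islet cells. All 7 probes of the list were detected in both organs, with a median ratio of 3.01 (range 1.64 to 3.52). Of the 7, 6 were at least 2-fold higher in liver, beside 18.5% of all tested probes and 62 of the 197 probes detected in liver. The probe fru-miR-216a gave 9334 in liver (8838 to 9569.8), against 2865 in spleen (2705 to 3122), a 3.26-fold difference, and dre-miR-216a gave 2.89-fold. The probe dre-miR-217 gave 2444 in liver (2031 to 2815), against 813 in spleen (640.4 to 966), a 3.01-fold difference. In these probes the spots of the organs did not overlap, apart from the lowest liver spot of dre-miR-216a (1222), which had failed. The exception was dre-miR-216b, at 2348 in liver (253 to 2451), against 1435 in spleen (1357 to 1501). With 2 failed liver spots its spots overlapped, and its ratio of 1.64 was under 2-fold. It passed 2-fold with quantile normalization (3.24), the loess over 2 arrays (3.17) and 1 factor per array (2.48), and was 1.09 with the mean over spots.

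The islet-type miR-375 had a similar ratio but another background. The probe ipu-miR-375 gave 709.7 in liver (604 to 754), against 203 in spleen (185 to 214), a 3.50-fold difference, and dre-miR-375 gave 3.52-fold. In spleen, the 5 probes for miR-216 and miR-217 stood at 7.03 to 15.4 times the highest of brain, muscle and heart, and in liver at 16.8 to 48.7 times. MiR-375, in contrast, was at 1.18 to 1.37 times the muscle signal in liver and at 0.337 to 0.390 times in spleen. The exocrine-type miRNAs thus set liver and spleen apart from the other 3 tissues, and miR-375 did not. Whether pancreatic tissue lay within either sample was not tested.

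**Figure D2:**
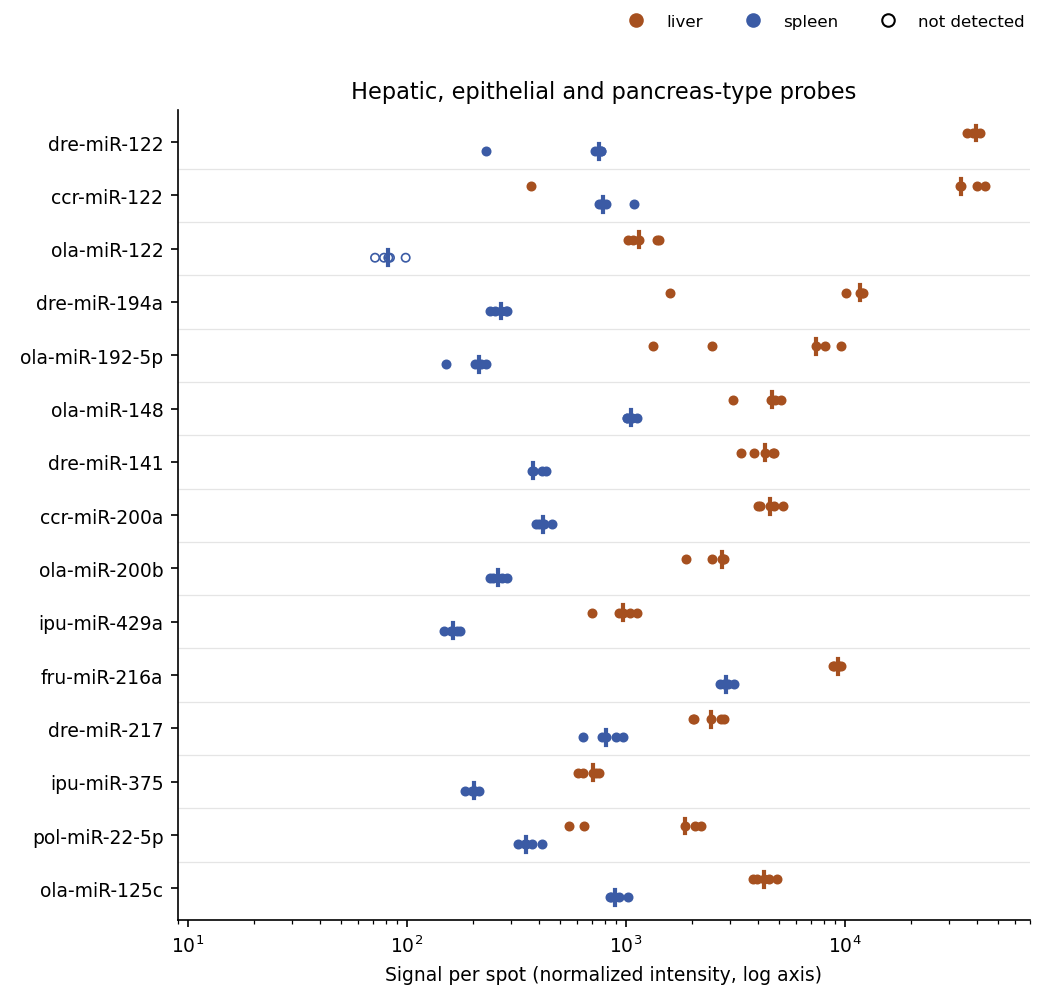
Signal of each of the 5 spots (log axis) for 15 probes of the hepatic, epithelial, pancreas-type and other sets, with liver above spleen in each row, a bar at the median and open points where a probe was not detected in that organ. Apart from 1 failed liver spot of ccr-miR-122, every liver spot drawn lies to the right of the spleen spots of its row.

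**Figure D3:**
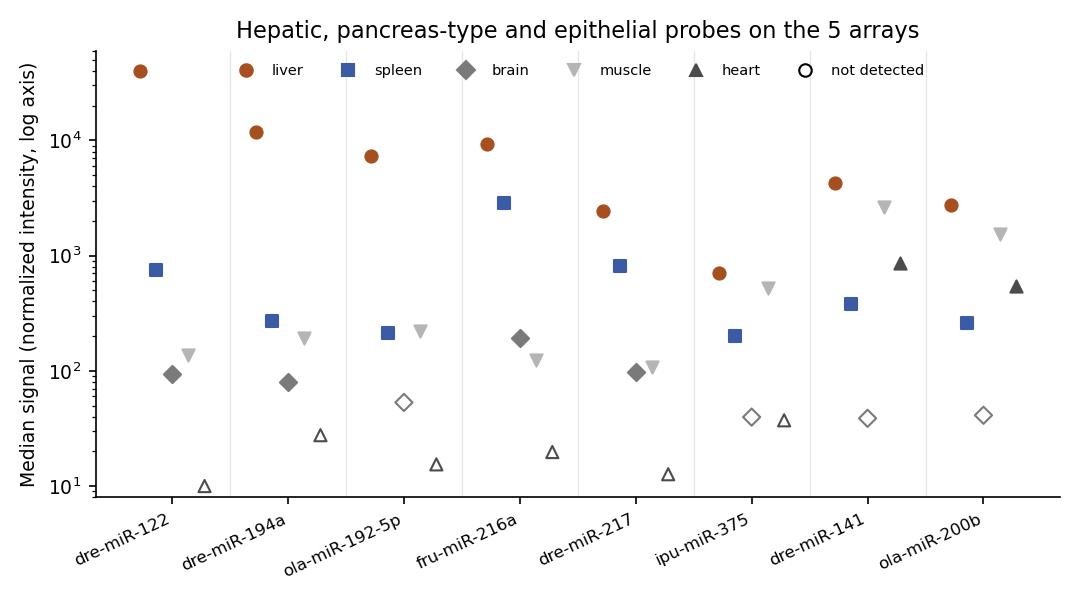
Median signal over 5 spots (log axis) of 8 probes on the 5 arrays, in the order liver, spleen, brain, muscle and heart within each probe, with open symbols where a probe was not detected and values under 10 drawn at 10. Signals of miR-216a and miR-217 are highest in liver and next highest in spleen, whereas for miR-375 and the miR-200 group the muscle exceeds the spleen.

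The miRNAs of blood cells ran the other way. MiR-144 and miR-451 are made from 1 transcript in red-cell precursors of fish and mammals, and the red cells of fish keep their nucleus. All 6 probes of this list were detected in spleen and 2 in liver, and all 6 were at least 2-fold lower in liver, beside 14.6% of all tested probes, with a median ratio of 0.130, or 0.148 with undetected liver levels at their bound. The probe dre-miR-451 gave 6916 in liver (6333 to 7613), against 19289 in spleen (17804 to 20418), which was 2.79-fold lower in liver. For miR-144, the probe pol-miR-144-5p gave 744 in liver (227 to 925), against 6285 in spleen (5914 to 6679.5), 8.45-fold lower in liver, with every spleen spot above every liver spot.

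For the other strand of miR-144, ccr-miR-144 was not detected in liver, where its signal was 413, against 3161 in spleen (3057 to 3187), at least 7.66-fold lower in liver. The other 3 probes for miR-144 were detected in spleen only and were lower in liver by at least 4.32-fold to at least 7.78-fold. Of the 5 probes for miR-144 only pol-miR-144-5p was measured in both organs, at a ratio of 0.118 beside 0.359 for miR-451, and the other 4 give bounds. No probe for miR-486, another miRNA of red cells, was among the 663.

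White-cell miRNAs were lower in liver as well. MiR-142 is found across blood lineages and miR-223 mainly in granulocytes and macrophages. Of the 11 probes, 8 were detected in at least 1 organ, 7 in liver and 8 in spleen, and 7 were at least 2-fold lower in liver, beside 14.6% of all tested probes. Their median ratio was 0.175, or 0.188 with the undetected liver level at its bound. On the 5p strand of miR-142, tni-miR-142b gave 1245 in liver (348 to 1406), against 8611 in spleen (8348 to 9165), 6.92-fold lower in liver, and ola-miR-142 and dre-miR-142a-5p were 7.07-fold and 5.92-fold lower. On the 3p strand the probes gave different sizes, although their sequences are nearly the same. The probe ipu-miR-142 was 5.94-fold lower, whereas ccr-miR-142-3p, which lacks 1 base at the 3′ end, gave 3274 in liver (2505 to 3628), against 9144 in spleen (8961 to 9448) and was 2.79-fold lower. The probe dre-miR-142a-3p was not detected in liver and was at least 4.84-fold lower. All 6 differences had the same direction.

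For miR-223, the probe ola-miR-223 gave 2617 in liver (428 to 4572), against 5807 in spleen (5685 to 6599), 2.22-fold lower in liver, and dre-miR-223, which is longer by 1 base, gave 829 in liver (761 to 1016), against 1235 in spleen (1021 to 1339.8), a ratio of 0.672 that was not called. The liver spots of ola-miR-223 were widely spread, and its call was lost with the mean over spots that had not failed, at a ratio of 0.587.

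Among miRNAs of lymphocytes and of immune activation, 18 of 19 probes were detected in at least 1 organ, 12 in liver and 18 in spleen, and 9 were at least 2-fold lower in liver and none higher, beside 14.6% and 18.5% of all tested probes. Their median ratio was 0.475, or 0.492 with undetected liver levels at their bound. MiR-146, which damps inflammatory signalling in mammals, included the probe with the widest gap among those lower in liver and detected in both organs. The probe dre-miR-146b gave 823 in liver (316 to 1041), against 9412 in spleen (8501 to 9773), 11.4-fold lower in liver. The probe dre-miR-146a, with the same seed, gave 1083 in liver (662 to 1224), against 2853 in spleen (2665 to 2935), 2.64-fold lower. The ratios of miR-146b and miR-146a were 0.0874 and 0.379 here, and 0.0397 and 0.183 without normalization. The gap was therefore wider for miR-146b than for miR-146a in both.

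MiR-150 marks mature lymphocytes and miR-155 activated lymphocytes and macrophages. Neither was detected in liver. The probe ola-miR-150 had a liver signal of 485, against 3338 in spleen (3126 to 3747), at least 6.88-fold lower in liver, and dre-miR-150 was at least 6.08-fold lower. The probe dre-miR-155 had a liver signal of 165, against 1409 in spleen (1234 to 1496), at least 3.87-fold lower, and ipu-miR-155 was at least 3.63-fold lower. All 4 probes were thus bright in spleen and without a detected signal in liver. For miR-150 the liver signals, 419 and 485, lay above the lowest detected liver signal of 365. Failing the detection criteria there does not show absence from liver. MiR-181 is known from lymphocyte development and also from brain. All 9 probes for its 5p arm were detected in both organs, at spleen signals of 2027 to 5647, all high enough for a call. The 14.6% of all tested probes is a low base for them, since it includes probes too dim in spleen for a call. The ratios of the 9 lay between 0.433 and 0.665, and 2 of the 9 reached 2-fold (22.2%, beside that 14.6%). Without normalization the ratios were 0.213 to 0.338, so that all 9 did, and with 1 factor per array 0.324 to 0.513. The 2 were dre-miR-181c, at 910.2 in liver (538 to 1257), against 2104 in spleen (1985 to 2579), 2.31-fold lower in liver, and hhi-miR-181b, 2.08-fold lower, whose call was lost with plain subtraction (0.525) and the loess over 2 arrays (0.501). In all 9 the spleen spots lay above the liver spots.

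MiR-462 and miR-731 form a pair that is known from fishes and responds to virus and interferon in several of them. The probe dre-miR-462 gave 3871 in liver (3765 to 5589.7), against 12428 in spleen (11418 to 13484), 3.21-fold lower in liver. Probes ipu-miR-462 and ola-miR-462 were 5.37-fold and at least 4.36-fold lower, so that all 3 probes for miR-462 were called, beside 14.6% of all tested probes. For miR-731, dre-miR-731 was detected in spleen only, at 74.0, under the lowest detected liver signal, so no fold can be given, and ola-miR-731 was detected in neither organ.

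Summed over each list, the red-cell signal was 9101 in liver and 36672 in spleen, the white-cell signal 12371 in liver and 51312 in spleen, and the lymphoid and immune signal 22896 in liver and 57735 in spleen. The red-cell sum was 3726 in brain, 8649 in muscle and 8258 in heart, and the white-cell sum 4484, 11752 and 26533. Spleen therefore had the highest sum of both lists among the 5 tissues, while the red-cell sum of liver was close to those of muscle and heart and its white-cell sum close to that of muscle. How much of the immune difference came with the blood in each organ was not tested.

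MiR-126, the miRNA of the cells that line blood vessels, did not follow the blood cells. Its 5 detected probes, of 6, were detected in both organs and none was called, at ratios between 0.909 and 1.58. The probe ccr-miR-126-3p gave 5913 in liver (5118 to 6909), against 3743 in spleen (3469 to 4110.2), a ratio of 1.58, which became 0.630 without normalization and 0.958 with 1 scaling factor per array, so the direction for miR-126 was not settled.

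**Figure D4:**
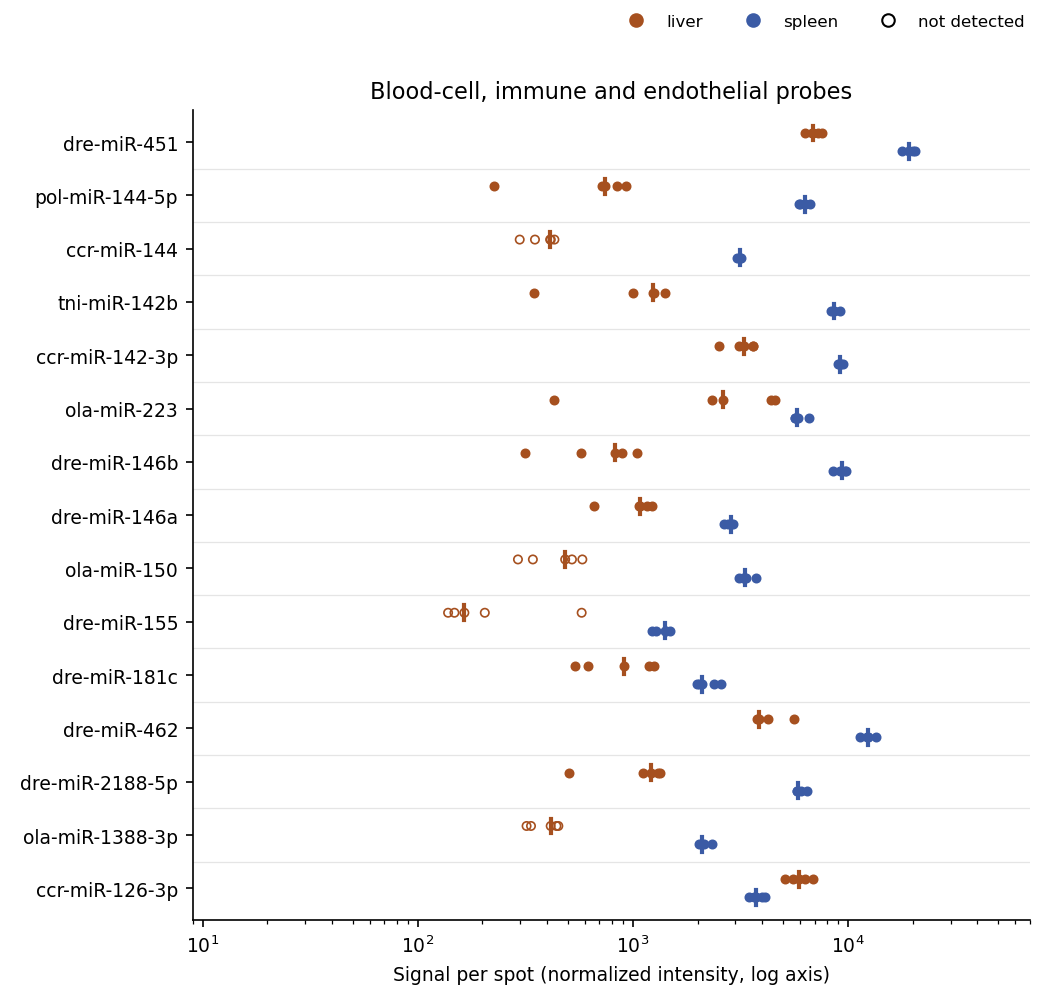
Signal of each of the 5 spots (log axis) for 15 probes of the blood-cell, immune, fish-specific and endothelial sets, with liver above spleen in each row, a bar at the median and open points where a probe was not detected in that organ. In 14 rows the spleen spots lie to the right of all liver spots, while in the row of ccr-miR-126-3p they lie to the left.

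These directions had to be read against the scaling of the arrays. Over the 194 probes detected in both organs the median ratio was 1.21 in the values given here, and it became 0.574 without normalization between arrays, a shift of -1.07 on the log2 scale. With 1 scaling factor per array the shift was -0.47, with quantile normalization -0.13 and with plain background subtraction 0.12. Without normalization 33 probes were at least 2-fold higher and 105 lower in liver, and with 1 factor 39 and 56, beside the 62 and 49 above. No probe called in 1 direction here was called in the other under any setting tried. The medians of the hepatic, epithelial and pancreas lists stayed above 1, and those of the red-cell, white-cell, immune and miR-462 lists below 1, under all 6 scalings. The endothelial median of 1.41 turned to 0.595 without normalization and 0.904 with 1 factor, and the stromal median of 1.47 to 0.785 without normalization, so that no direction is given for either.

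**Figure D5:**
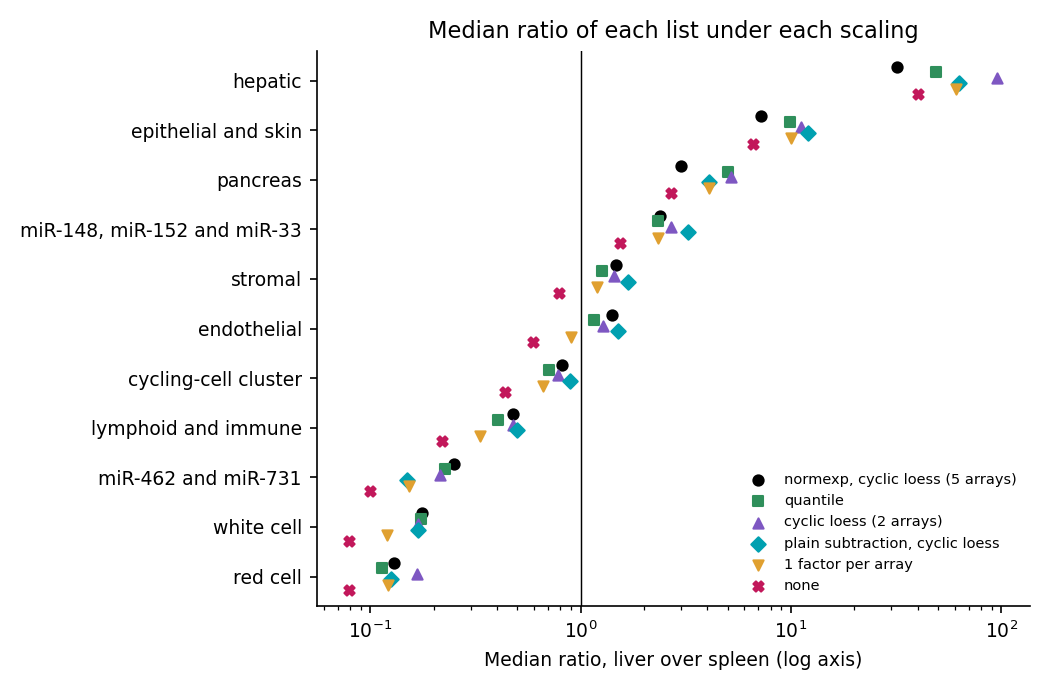
Median ratio of liver over spleen (log axis) over the detected probes of each list, with 1 symbol per way of scaling the arrays and the vertical line at equal signal. The hepatic, epithelial, pancreas, red-cell, white-cell, immune and miR-462 lists keep their side of the line under all 6 scalings, while the stromal and endothelial symbols fall on both sides.

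Outside these lists, the 10 largest differences in each direction, with 1 probe per family, added a few miRNAs. In liver these were pol-miR-22-5p and ola-miR-125c. The probe pol-miR-22-5p gave 1871 in liver (551 to 2208), against 350.1 in spleen (320.4 to 414), a 5.34-fold difference, and 3.77 without normalization. The probe ola-miR-125c gave 4297 in liver (3796 to 4924), against 893 in spleen (843 to 1025), a 4.81-fold difference, which was 1.87 without normalization. MiR-125 shares conserved clusters with let-7, miR-99 and miR-100. Of the 12 probes for miR-99, miR-100 and miR-125, 10 were detected in both organs, at ratios of 1.77 to 4.81. Without normalization these ran between 0.755 and 1.87, on both sides of 1. Of the 10, 8 were at least 2-fold higher in liver, beside 18.5% of all tested probes and 62 of the 197 probes detected in liver. Of the 20 probes for let-7, 18 were detected, 12 of them in both organs. At least 2-fold higher in liver were 6 (33.3% of the 18, beside 18.5% of all tested probes), and none was lower. Among all probes detected in liver, 62 of 197 were higher. The ratios of the 12 let-7 probes detected in both organs lay on both sides of 1 without normalization (0.414 to 1.21).

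In the other direction the additions were ola-miR-1388-3p, dre-miR-2188-5p and dre-miR-18a. The probe ola-miR-1388-3p was not detected in liver (415), against 2101 in spleen (2039.7 to 2323), at least 5.06-fold lower in liver. The probe dre-miR-2188-5p gave 1213 in liver (504 to 1339.6), against 5878 in spleen (5791 to 6466), 4.85-fold lower. The probe dre-miR-18a, of the miR-17 to miR-92 cluster that is known from dividing cells, gave 499 in liver (404 to 631), against 1519 in spleen (1442 to 1565), 3.04-fold lower. Of the 40 probes for that cluster and its relatives, 29 were detected and 3 were called, all 3 for miR-18a and lower in liver, a share of 10.3% beside 14.6% of all tested probes. Some families were noticed after their values had been seen, so their shares are description only and no support. MiR-31 was detected in spleen only by all 3 of its probes and was at least 2-fold lower in liver in each, beside 14.6% of all tested probes. Their spleen signals were 949 to 1064, all high enough for a call, so the 14.6% is a low base for them. Of the 15 probes for miR-15 and miR-16, 10 were detected, 5 of them in both organs at ratios of 0.277 to 0.569. Over all 10, with undetected liver levels as read, the ratios were 0.277 to 0.642. At least 2-fold lower in liver were 4 (40% of the 10, beside 14.6% of all tested probes).

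Some of the brightest probes were shared, although brightness of different probes does not rank the amounts of their miRNAs. The 5 brightest probes in liver were pol-miR-133-5p, dre-miR-122, ccr-miR-122, dre-miR-21 and pol-miR-21-5p, and in spleen pol-miR-133-5p, dre-miR-451, dre-miR-21, pol-miR-21-5p and ola-miR-21. MiR-21, which is widely expressed in animal tissues, was even between the organs in the values given here. The probe dre-miR-21 gave 16375 in liver (988 to 16678), against 16240.3 in spleen (15128 to 17879), a ratio of 1.01. Of the 4 probes for miR-21, 3 were detected, all for the 5p arm, and these had ratios between 0.950 and 1.01. Without normalization these were 0.350 to 0.377, and with 1 factor per array 0.532 to 0.573, so that the evenness depended on the scaling. The probe pol-miR-133-5p gave 44998 in liver (40252 to 49703), against 20304 in spleen (18329 to 21407), a 2.22-fold difference that turned to a ratio of 0.775 without normalization and fell under 2-fold with the other 3 normalizations (at most 1.87). It was the only 1 of 12 probes for miR-133, the miRNA of striated muscle, detected in either organ. Another probe named for the 5p arm, ccr-miR-133a-5p, gave 138 in liver and 77.3 in spleen, against 6355 in muscle. Whether pol-miR-133-5p reads miR-133 in liver and spleen was not tested. Of the 22 muscle and 32 neural probes, 4 each were detected in at least 1 of the organs.

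Of the 48 probes made for miRNAs listed as specific to sturgeon, 18 were detected in at least 1 organ, 3 were called higher in liver and 1 lower. That is 16.7% and 5.56% of the 18, beside the 18.5% and 14.6% of all tested probes. Only 6 of the 18 were detected in liver, and the others could not be called higher there. Of these 6, 3 were called higher, beside 62 of the 197 probes detected in liver. Of those detected in spleen only, all but the 1 called lower had spleen signals of 52.1 to 288. These were too dim for a call of lower, so the 5.56% does not show a shortage. The called probes are given by sequence, with the seed in capitals.
sturgeon-specific probe A: uGAUAGAAcuccgugccacaggc
sturgeon-specific probe B: aGGUGGGGaguuugacug
sturgeon-specific probe C: aGAGGUAGuugguuguauaguu
sturgeon-specific probe D: cAUCGGGAagcucgugucagcc
Probe A gave 2402 in liver (1931 to 2572), against 536 in spleen (481 to 553), a 4.48-fold difference, and a ratio of 2.80 without normalization. Probe B gave 6887 in liver (3978 to 7969.7), against 2359.8 in spleen (2232 to 2473), a 2.92-fold difference. Probe C, whose seed is that of 17 of the 20 let-7 probes, gave 2899.7 in liver (1599 to 3330.5), against 1301 in spleen (1056 to 1479), a 2.23-fold difference that turned to 0.885 without normalization. Probe D was not detected in liver (205), against 868 in spleen (826 to 983), at least 2.38-fold lower in liver. Without normalization probe A was still at least 2-fold higher in liver, and probes B (1.17) and C were not. With 1 factor per array B and C were also under 2-fold, at 1.78 and 1.35.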

How the data were processed

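RNA from 5 organs of 1 fish, liver and spleen among them, was hybridized to 5 single-color arrays. The authors scanned them with a GenePix scanner and used Array-Pro for digitizing, and the deposited values used here are the raw median intensity of each spot and its SD over pixels, on a linear scale, without normalization. A deposited table of processed intensities was not used, because its row names did not match the scanner values. Background was corrected by normexp (offset 50, taken off afterwards), and cyclic loess (3 iterations) was applied to the 5 arrays over 3315 probe spots with limma 3.58.1 in R 4.3.3. Signal is the median over 5 spots, and local background the median of the 20 nearest empty spots. Other steps used Python 3.11.15, numpy 2.4.6 and pandas 2.3.3. With 1 array per tissue no test was run, a call is a 2-fold difference, and the number of arrays limits the precision. Full values are given for the brightest probe of each family and arm of the fixed lists, the 10 widest ratios in each direction and the 5 brightest probes of each organ. The members, lists and rules were chosen with earlier results of these data known. The steps were tested on simulated data. No genome was used, so coordinates are not given.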

Additional observations from a re-analysis of the deposited data

How the results depend on the processing

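The medians of the hepatic, red-cell, white-cell, lymphoid and immune, and pancreas lists kept their direction under every alternative run. The count of probes at least 2-fold higher in liver was 33 without normalization, 39 with 1 factor per array and 39 at 3-fold, beside 62, and the count of those lower in liver was 105 without normalization and 24 at 3-fold, beside 49. The hepatic median ratio was 62.9 with plain background subtraction, 49.1 with quantile normalization, 40.1 without normalization, 95.6 with cyclic loess over the 2 arrays only and 61.0 with 1 factor, beside 31.8. The pancreas median was 4.05, 5.00, 2.68, 5.21 and 4.07 in the same order, beside 3.01. The red-cell median was 0.113 with quantile normalization, 0.0796 without normalization and 0.167 with the 2-array loess, beside 0.130. The white-cell median was 0.0792 without normalization, 0.120 with 1 factor, 0.217 with the mean over spots, with or without failed spots, and 0.358 over all probes of the list, beside 0.175. The lymphoid and immune median was 0.219 without normalization and 0.333 with 1 factor, beside 0.475. The cause of these shifts was not tested. Of the 62 probes called higher in liver, 8 fell to ratios of 0.775 to 0.980 without normalization, namely pol-miR-133-5p (0.775), the sturgeon-specific probe C (0.885), all 3 probes for miR-145, dre-let-7c, ola-let-7e and dre-miR-125a, and none did so under the other 4 scalings. None of the 49 called lower rose above 1. The endothelial, stromal, muscle and neural medians lay on both sides of 1 across the scalings.

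The detection limit of the liver array rests on its uneven empty spots. At 5 times their SD, 163 probes were detected in liver and 309 in spleen, 161 of them in both. With a robust SD, 287 were detected in liver and 333 in spleen, 272 of them in both, and 71 probes were then called higher and 70 lower in liver. An alternative with the deposited processed intensities was not run, since their rows could not be tied to probes. The paper also lists processed signals of some miRNAs by name, and these were not compared here. No paired analysis was possible because each tissue has 1 array. Liver values of dim probes are therefore the least certain, and no comparison here has a replicate check.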
